A study of Macaca nemestrina with 15 samples.

Results

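A set of 10 transcription factors, markers of a T-cell lineage or memory state, were read from RNA-seq of peripheral blood mononuclear cells (PBMCs) of pig-tailed macaques. They are TCF7, LEF1, SATB1 and KLF2, linked to naive and central memory T cells, TBX21, EOMES and ZEB2, linked to effector cells, and GATA3, FOXP3 and IKZF2, linked to T helper 2 and regulatory cells. A row of the count table was taken as a member where its gene name was one of these names, which gave 10 of the 28865 features. The cells came from 5 female *Macaca nemestrina*, named Z15228, Z13076, Z15339, Z15303 and Z15408 in the labels, which all received oral islatravir (ISL), a nucleoside reverse transcriptase translocation inhibitor of HIV, at 30 mg/kg once weekly by gavage for 12 weeks. Each animal gave 1 library before the first dose (pre-treatment, labelled Control), 1 at week 12, when dosing ended, and 1 at week 18 (both labelled Islatravir), which makes 15 libraries. The study's methods put week 18 at 6 weeks without drug, while a figure legend of the study gives a shorter time. No animal went untreated, so time and treatment cannot be told apart. In the library names, dates place the second library of an animal 56 or 57 days and the third 84 days after the first. These times are shorter than the labelled weeks, so the length of the drug-free time is uncertain. The labelled weeks are used here.

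TCF7 and LEF1 are related DNA-binding factors downstream of WNT signalling that keep T cells in a naive or stem-like memory state, while T-bet (the product of TBX21), eomesodermin (EOMES) and ZEB2 drive the cytotoxic effector program of CD8 T cells and natural killer (NK) cells. As a T cell turns from naive into effector, the first group falls and the second rises. GATA3 directs T helper 2 cells, and FOXP3, with Helios (IKZF2), marks regulatory T cells. Several of these factors are not limited to T cells in blood. TBX21, EOMES and ZEB2 are also made by NK cells, ZEB2 by monocytes and KLF2 by many resting leukocytes. In bulk PBMCs, fewer cells of a type and less RNA per cell cannot be told apart.

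Between 5610597 and 10379572 reads were counted per library (median 8871860), and the fewest were those of Z15303 at week 12 and at week 18 (5886482). Markers of T cells (9 genes), B cells, monocytes and NK cells were detected in every library, and the sum of the T-cell markers lay between 1598 and 2557 CPM, the read count scaled to a common library size. Since libraries from 1 animal resembled each other, the members called are also counted with a term for the animal (the block). Blocked estimates of members are printed where the unadjusted p in that fit was under 0.05 or the sign changed. The other standard errors (SE) ignore the animal. With the block the SE was smaller for every member, as for TBX21 at week 12 (0.15 against 0.26). All 10 members passed the filter on low counts, with at least 42 counts in each library (IKZF2) and at most 4311 (KLF2). Levels are CPM from libraries scaled by TMM and are not corrected for gene length, so they are compared between libraries and never between genes.

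None of the 10 members changed between time points by edgeR's quasi-likelihood test (0 of 10 at week 12 vs. pre-treatment, at week 18 vs. pre-treatment and at week 18 vs. week 12). Their log2 fold changes were small, between -0.27 (EOMES, week 18 vs. week 12) and 0.25 (KLF2, week 18 vs. pre-treatment), and their 95% intervals stayed between -0.78 and 0.72. Over all 12880 features tested, the share called was 0% in each comparison. At an unadjusted p of 0.05, 0 members passed in the 3 comparisons, against 1.61%, 1.69% and 0.505% of all features. DESeq2's Wald test, limma-voom and edgeR's blocked fit also called 0 members. Of all features, limma-voom called 0 in each comparison, and DESeq2 called 1, 0 and 0 of 20694, or 21, 50 and 8 of 20732 with the block. In the blocked fit, 0.00776%, 0.00776% and 0% of features were called, and at an unadjusted p of 0.05 the members numbered 1 (KLF2), 2 (KLF2 and ZEB2) and 1 (EOMES), against 4.69%, 5.85% and 2.17% of features. The 3 time points overlapped for all 10 members, while 0.28%, 0.334% and 0.101% of features did not overlap. All 5 animals moved the same way for 1 member at week 12 (KLF2), 0 at week 18 and 2 at week 18 vs. week 12 (EOMES and FOXP3), against 5.68%, 6.53% and 5.86% of all features. With 5 animals, an exact two-sided sign-flip test of the change within animals cannot give a p below 0.0625.

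**Figure D1:**
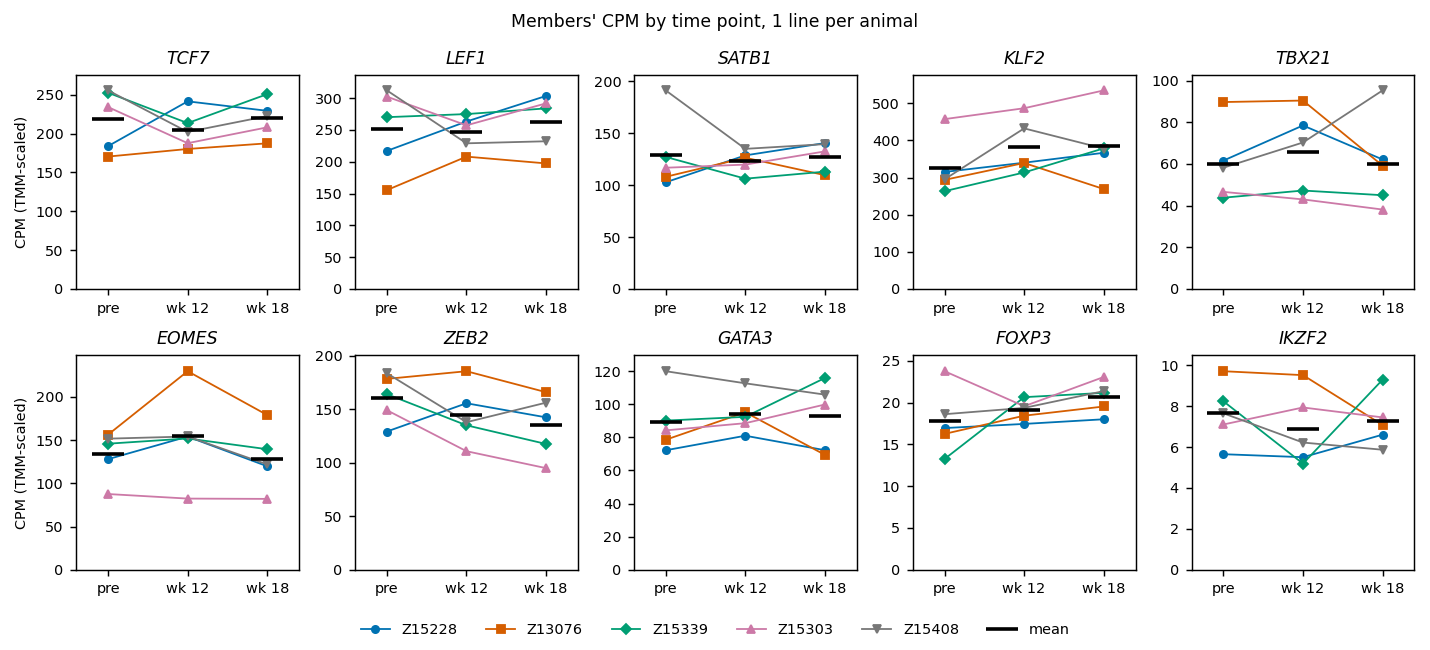
CPM of each member (vertical axis, TMM-scaled, from 0) at pre-treatment, week 12 and week 18, with a line for each of the 5 animals and a black bar for the mean. The time points overlap in all 10 panels, and the EOMES line of Z15303 lies below, and that of Z13076 above, all the others.

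Among the naive and central memory factors, KLF2 differed most from pre-treatment at both later times. KLF2 is a quiescence factor of resting T cells that keeps the egress receptor S1PR1 on. Before treatment it was measured at 315, 294, 263, 457 and 295 CPM in Z15228, Z13076, Z15339, Z15303 and Z15408, an order of animals kept below. At week 12 the values were 340, 339, 314, 487 and 432 CPM, and at week 18 they were 367, 269, 379, 535 and 378 CPM. Every animal stood higher at week 12 than before treatment, and 4 of 5 did so at week 18, the exception being Z13076. The log2 fold change was 0.23 (SE 0.19, edgeR adjusted p = 0.99997) at week 12 and 0.25 (SE 0.19, adjusted p = 0.99998) at week 18. In the blocked fit it was 0.24 at both times (SE 0.11, unadjusted p = 0.0465 and 0.0468, adjusted p = 0.982 and 0.843). A higher value in 5 of 5 animals was seen for 2.23% of all features at week 12. A covariate for the CD3 genes gave 0.14 and 0.15 for the 2 times, and leaving out Z15408 gave 0.15 at week 12. Between week 18 and week 12 KLF2 differed by 0.01 (SE 0.19), with 3 of 5 animals higher.

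TCF7, the factor that defines naive and stem-like memory T cells, had means of 219 ± 39.7, 205 ± 24.1 and 220 ± 23.7 CPM (SD, n = 5) at the 3 time points. Its values were 184, 170, 253, 234 and 256 CPM before treatment, 242, 180, 214, 188 and 202 CPM at week 12, and 229, 187, 251, 208 and 223 CPM at week 18. Z15228 and Z13076 were higher at week 12 than before, and the other 3 animals were lower. TCF7 differed on the log2 scale by -0.10 (SE 0.13) at week 12, 0.002 (SE 0.13) at week 18 and 0.10 (SE 0.13) at week 18 vs. week 12, where 4 of 5 animals were higher.

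LEF1, the partner of TCF7, was measured at 217, 155, 270, 302 and 312 CPM before treatment, at 263, 208, 275, 257 and 229 CPM at week 12, and at 303, 197, 284, 292 and 232 CPM at week 18. The animals drew together at week 12, when the SD was 27.3 CPM, against 65.2 CPM before treatment, a difference in spread that was not tested. Its log2 fold change was -0.03 (SE 0.18) at week 12 and 0.06 (SE 0.18) at week 18. Within animals the change at week 12 ran from -0.45 in Z15408 to 0.42 in Z13076.

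SATB1, a chromatin organizer of thymocytes and naive T cells, was measured at 103, 108, 127, 117 and 191 CPM before treatment. It then stood between 106 and 135 CPM at week 12 and between 110 and 140 CPM at week 18. The pre-treatment library of Z15408 was the highest of the 15, and that animal had the lowest change at week 12 (-0.50 on the log2 scale). SATB1 had a log2 fold change of -0.07 (SE 0.15) at week 12 and -0.02 (SE 0.15) at week 18.

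Of the effector factors, EOMES, which directs cytotoxic and memory CD8 T cells and NK cells, had the largest difference between the later time points. It was measured at 128, 156, 146, 87.6 and 152 CPM before treatment, at 154, 230, 152, 82.3 and 154 CPM at week 12, and at 120, 179, 139, 81.9 and 122 CPM at week 18. At week 12 it was higher than before in 4 of 5 animals (log2 fold change 0.21, SE 0.24). At week 18 it was lower than at week 12 in all 5 animals, by 0.006 in Z15303 and by 0.12 to 0.36 on the log2 scale in the others. The log2 fold change was -0.27 (SE 0.24, edgeR adjusted p = 0.9997), and the blocked fit gave -0.24 (SE 0.11, unadjusted p = 0.0327, adjusted p = 0.9998). A lower value in 5 of 5 animals was seen for 2.87% of all features in that comparison. Against pre-treatment, EOMES at week 18 differed by -0.06 (SE 0.24).

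ZEB2, a repressor that acts with T-bet in terminal effector cells and is also expressed by monocytes, had the lowest log2 fold change of the members at week 18 vs. pre-treatment. It was measured at 129, 179, 164, 149 and 184 CPM before treatment, at 156, 186, 135, 111 and 138 CPM at week 12, and at 143, 166, 118, 95.1 and 156 CPM at week 18. Of the 5 animals, 4 were lower at week 18 than before treatment, and Z15228 was higher. The log2 fold change was -0.25 (SE 0.16, edgeR adjusted p = 0.99998), and -0.27 with the block (SE 0.12, unadjusted p = 0.0348, adjusted p = 0.825), and without Z15303 it was -0.16. At week 12 it was -0.15 (SE 0.16). The sum of the 9 monocyte markers differed by a mean of 0.21 on the log2 scale within animals at week 18 (4 of 5 higher), and its part in the value for ZEB2 was not tested.

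TBX21, which directs T helper 1 and cytotoxic cells, was measured at 61.6, 89.7, 43.8, 46.6 and 58.2 CPM before treatment, at 78.5, 90.5, 47.3, 43.0 and 70.3 CPM at week 12, and at 62.2, 59.2, 45.0, 38.1 and 95.3 CPM at week 18. The animals went separate ways by week 18, with a change from pre-treatment of -0.60 on the log2 scale in Z13076 and 0.71 in Z15408. Over the 5 animals, TBX21 had a log2 fold change of 0.14 (SE 0.26) at week 12 and 0.001 (SE 0.26) at week 18.

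GATA3, the factor of T helper 2 cells that most T cells also need, had means of 89.0 ± 18.5, 94.0 ± 11.7 and 92.6 ± 20.7 CPM (SD, n = 5). Its highest values were those of Z15408, at 120, 113 and 106 CPM, apart from 116 CPM in Z15339 at week 18. GATA3 had a log2 fold change of 0.08 (SE 0.17) at week 12 and 0.06 (SE 0.17) at week 18.

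FOXP3, the defining factor of regulatory T cells, was measured at 16.9, 16.3, 13.3, 23.7 and 18.6 CPM before treatment, at 17.4, 18.4, 20.6, 19.6 and 19.4 CPM at week 12, and at 18.0, 19.5, 21.2, 23.1 and 21.4 CPM at week 18. Every animal was higher at week 18 than at week 12, by 0.04 to 0.23 on the log2 scale, and a higher value in 5 of 5 animals was seen for 2.99% of all features. The log2 fold change in that comparison was 0.11 (SE 0.15, edgeR adjusted p = 0.9997). Against pre-treatment it was 0.10 (SE 0.14) at week 12 and 0.21 (SE 0.14) at week 18, with 4 of 5 animals higher at both times. Z15339 had the widest change, 0.63 at week 12 and 0.67 at week 18, and without that animal the log2 fold change at week 12 was -0.01.

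IKZF2 had the fewest counts, 42 to 86 per library. Its means were 7.67 ± 1.49, 6.87 ± 1.82 and 7.26 ± 1.28 CPM (SD, n = 5). IKZF2 had a log2 fold change of -0.16 (SE 0.22) at week 12 and -0.08 (SE 0.22) at week 18. Z15339 was at 8.24, 5.19 and 9.29 CPM, and its change between week 12 and week 18 was 0.81 on the log2 scale, the highest within-animal change of any member.

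**Figure D2:**
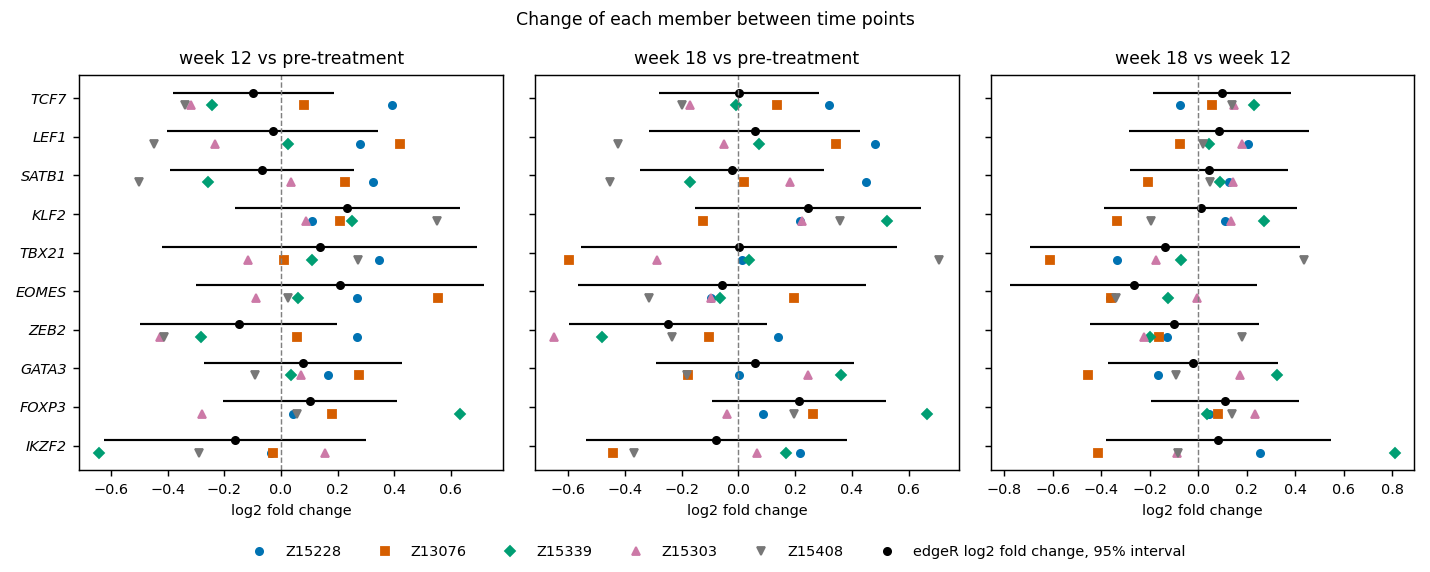
Log2 fold change of each member in the 3 comparisons (horizontal axis). Black points and lines are edgeR's estimate and its 95% interval without the block. Coloured points are the change within each of the 5 animals. The dashed line is 0, which every one of the 30 intervals spans. Blocked intervals, not drawn, left out 0 for KLF2 at week 12 and week 18 (0.004 to 0.481 at both). They also did so for ZEB2 at week 18 (-0.519 to -0.022) and EOMES at week 18 vs. week 12 (-0.466 to -0.023).

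The balance of naive over effector, T helper 2 and regulatory factors was described by an index, called naive-minus-effector for short. It is the mean log2 CPM of TCF7, LEF1, SATB1 and KLF2 minus that of the other 6 members, with no test since the members were chosen. The index averaged 2.12 ± 0.32 (SD, n = 5) at pre-treatment, 2.12 ± 0.29 at week 12 and 2.23 ± 0.30 at week 18. Within animals it differed by 0.003 ± 0.083 at week 12 and by 0.11 ± 0.19 at week 18. Between week 12 and week 18 the difference was 0.11 ± 0.11, with 4 of 5 animals higher and Z15408 lower by 0.04. Taken against the 3 effector factors alone, the index at week 18 differed from pre-treatment by 0.21 ± 0.25, with 4 of 5 animals higher and Z15408 lower. The difference between week 18 and week 12 was then 0.22 ± 0.18, again with Z15408 the exception. In that comparison the mean of the effector factors was lower in 4 of 5 animals (mean within-animal change -0.16 ± 0.18). The mean of the naive factors was higher in 4 of 5 (0.05 ± 0.12), the exception being Z13076. The sum of 7 NK-cell markers was lower at week 18 than at week 12 in the same 4 animals as the effector factors (mean within-animal change -0.15 ± 0.14 on the log2 scale) and higher by 0.04 in Z15408, and the sum of the monocyte markers was higher in 4 of 5 (0.37 ± 0.50). Their part in the effector factors' values was not tested.

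**Figure D3:**
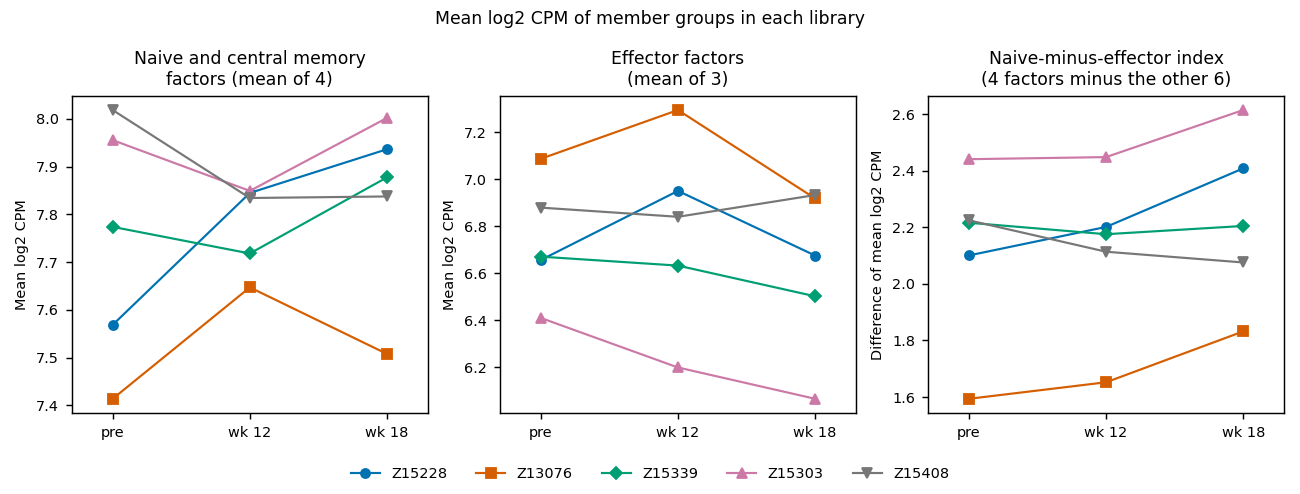
Mean log2 CPM of the 4 naive and central memory factors, mean log2 CPM of the 3 effector factors, and the naive-minus-effector index (4 factors minus the other 6, in log2 units) at the 3 time points, with a line for each animal. Z15303 has the highest index at every time point, 2.44 to 2.61, and Z13076 the lowest, 1.59 to 1.83.

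Several members differed between animals. In the fit with time point and animal, edgeR's test of the animal term called 6 of the 10 members, against 30.9% of all features. These were EOMES (adjusted p = 0.000137), TBX21 (0.00271), KLF2 (0.00641), GATA3 (0.0245), ZEB2 (0.0466) and LEF1 (0.0496). TCF7 (adjusted p = 0.189), SATB1 (0.147), IKZF2 (0.359) and FOXP3 (0.424) did not pass. Without Z15303 only TBX21 and GATA3 passed, and KLF2 (adjusted p = 0.509) and EOMES (0.0607) did not. LEF1 and ZEB2 also lost the call without Z13076 (adjusted p = 0.820 and 0.136) or without Z15339 (0.0903 and 0.0723), and GATA3 without Z15228 (0.111) or without Z15408 (0.137). TBX21 passed whichever animal was left out. LEF1 also lost the call when libraries were scaled without TMM (adjusted p = 0.0721). Z15228 and Z13076 have library dates of their own, which cannot be told apart from the animal. Z15303 shares its dates with Z15339 and Z15408. Its low depth was limited to its later libraries, and its pre-treatment library held 9232914 reads. In that library EOMES was 87.6 CPM, against 146 and 152 CPM in Z15339 and Z15408 before treatment. KLF2 was 457 CPM, against 263 and 295 CPM. TBX21, ZEB2, LEF1 and GATA3 of Z15303 were neither highest nor lowest of the pre-treatment libraries. The part of date and depth in these differences was not tested.

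EOMES separated the animals most. Its mean over the 3 libraries was 188 ± 37.6 CPM in Z13076 and 83.9 ± 3.15 CPM in Z15303 (SD, n = 3), 2.24 times apart, while Z15228, Z15339 and Z15408 had means of 134, 146 and 142 CPM. The 3 libraries of Z13076 lay above all others, at 156 CPM or more, and those of Z15303 lay below all others, at 87.6 CPM or less. TBX21 ran from 42.6 ± 4.25 CPM in Z15303 and 45.4 ± 1.75 CPM in Z15339 to 79.8 ± 17.8 CPM in Z13076. ZEB2 ran in the same way from 118 ± 27.9 CPM in Z15303 to 177 ± 9.93 CPM in Z13076.

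KLF2 and LEF1 were highest in Z15303 and lowest in Z13076, the reverse of the effector factors. KLF2 was 493 ± 39.0 CPM in Z15303, whose 3 libraries lay above all others, against 301 ± 35.6 CPM in Z13076. LEF1 was 187 ± 27.8 CPM in Z13076, whose libraries lay below all others, and 258 to 284 CPM in the means of the other 4 animals. Z13076 also had the lowest means of TCF7 (179 ± 8.55 CPM) and SATB1 (115 ± 10.2 CPM), neither of which passed the test between animals, while TCF7 was highest in Z15339 (239 CPM) and SATB1 in Z15408 (155 CPM). An animal whose 3 libraries lay apart from all others was found for 17.9% of the features tested. The mean index was 1.69 in Z13076, 2.14 in Z15408, 2.20 in Z15339, 2.24 in Z15228 and 2.50 in Z15303, and the ranges of the 2 extreme animals did not meet those of any other.

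**Figure D4:**
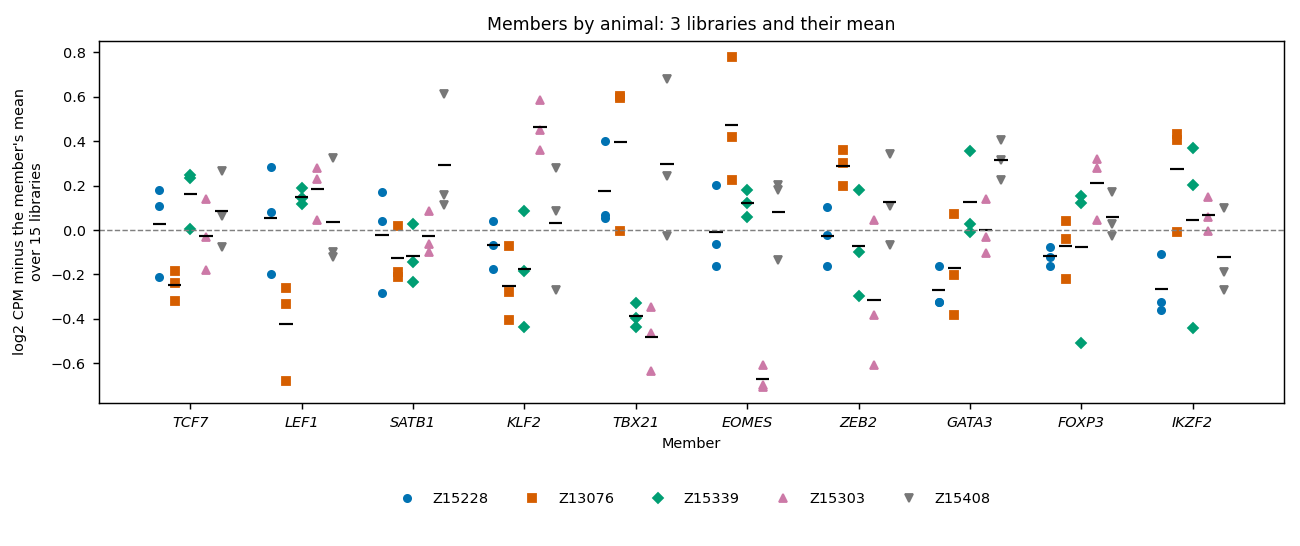
Log2 CPM of each member minus that member's mean over the 15 libraries (vertical axis), by animal, with a point for each of the 3 libraries and a black bar for their mean. Z13076 is lowest in TCF7, LEF1, SATB1 and KLF2 and highest in TBX21, EOMES and ZEB2, and Z15303 is lowest in the 3 effector factors and highest in LEF1 and KLF2.

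Cell-type markers also differed between these animals. The sum of 7 NK-cell markers was 454 ± 45.0 CPM in Z13076 and 240 ± 9.59 CPM in Z15303, the highest and lowest of the 5. Of the 7, 3 differed between animals by edgeR, against 30.9% of all features, and they did not share that order. KLRD1 (238 and 88.8 CPM) and NCAM1 (60.5 and 3.84 CPM) were highest in Z13076 and lowest in Z15303. NCR3 was highest in Z15303 (44.4 CPM, against 36.5 CPM in Z13076). CD8A was lowest in Z15303 (186 ± 30.1 CPM) and highest in Z15228 (396 ± 38.1 CPM), and the sum of the 9 T-cell markers was 2062 ± 94.6 CPM in Z15303 and 2338 ± 219 CPM in Z13076. The sum of the 9 monocyte markers was highest in Z13076 (4291 CPM) and lowest in Z15339 (2474 CPM), with 3455 CPM in Z15303. The part of NK cells, CD8 T cells or monocytes in the animals' levels of the effector factors was not tested.

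Genes of the cytotoxic program were mostly highest in Z13076, while the animal with the lowest level varied. Of 13 effector genes tested, 7 differed between animals, against 30.9% of all features, among them the granzyme genes GZMA (196 CPM in Z13076, 65.8 CPM in Z15408, edgeR adjusted p = 2.74e-05) and GZMK (164 CPM in Z13076, 76.6 CPM in Z15408, adjusted p = 4.7e-05). GNLY, which encodes the cytolytic protein granulysin, was highest in Z15339 (2000 CPM) and lowest in Z15408 (627 CPM, adjusted p = 1.76e-05). PRF1, KLRG1 and CST7 also differed, highest in Z13076 and lowest in Z15303 (909 and 439 CPM for PRF1). CTSW was highest in Z13076 and lowest in Z15228. The sum of the 13 genes was lowest in Z15303 (5511 CPM) and highest in Z15339 (9108 CPM). GZMB was the largest part of that sum, at 2571 CPM in Z15303 and 4422.5 CPM in Z15339. Of 10 surface and homing genes of naive and memory cells tested, 5 differed between animals, against 30.9% of all features. The sum of the list's 11 genes was highest in Z15303 (4127 CPM) and lowest in Z13076 (3558 CPM). The 5 genes did not share that order. LTB and PECAM1 were highest in Z15303 (991 and 720 CPM), and CD27 and TRABD2A were highest in Z15228. S1PR1 was lowest in Z15303 (71.6 CPM, edgeR adjusted p = 0.0125), where KLF2 was highest. The sum of the 14 other naive and memory factors tested was lowest in Z15303 (1388 CPM) and second highest in Z13076 (1576 CPM), after Z15408 (1582 CPM). ETS1 was the largest part of that sum (959 CPM in Z13076, 635 CPM in Z15303). Single factors had no common order. Of the 4 that differed between animals, against 30.9% of all features, ETS1 and FOXO3 were lowest in Z15303. BCL11B was highest in Z15303 (74.3 CPM) and lowest in Z13076 (35.7 CPM), and ID3 was lowest in Z13076 (9.59 CPM).

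Animals with shared library dates did not always move like the others. Z15339, Z15303 and Z15408 have the same 3 dates in their library names, and Z15228 and Z13076 have dates of their own. TCF7 was lower at week 12 in each of the former (mean within-animal change -0.30 on the log2 scale) and higher in both of the latter (0.24). ZEB2 showed the same split at week 12 (-0.37 and 0.16), and TCF7 again at week 18 (-0.13 and 0.23). Opposite directions in the 2 sets of animals were seen for 2 of 10 members at week 12, 1 at week 18 and 0 at week 18 vs. week 12, against 16.5%, 16.3% and 5.56% of all features, so the members' shares were near the background. KLF2 was higher in both sets at week 12 (0.30 and 0.16), as was FOXP3 at week 18 vs. week 12 (0.14 and 0.06), and EOMES was lower in both at week 18 vs. week 12 (-0.16 and -0.36).

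Cell-type markers moved over time as well. The sum of the 9 T-cell markers was higher at week 12 in 5 of 5 animals, by a mean of 0.13 ± 0.11 on the log2 scale (SD, n = 5), and the sum of the 8 B-cell markers was lower in 5 of 5 at week 12 (-0.80 ± 0.33) and at week 18 (-0.82 ± 0.36). Their part in the members' values was not tested. Relative to the mean log2 CPM of the T-cell receptor chain genes CD3D, CD3E and CD3G, KLF2 differed at week 12 by 0.10 ± 0.21, higher in 4 of 5 animals, TCF7 by -0.23 ± 0.46 and ZEB2 by -0.30 ± 0.47. By this measure all 5 animals had less EOMES at week 18 than at week 12 (-0.22 ± 0.19). In that comparison the mean of the CD3 genes was higher in each animal with shared library dates (mean 0.15) and lower in both with dates of their own (-0.26). Against pre-treatment it split the same way at week 18 (0.40 and -0.28), and values relative to it carry that split. At week 12 the mean of the CD3 genes was itself higher in 4 of 5 animals (0.14 ± 0.20), which lowers every value taken relative to it. At that time, 8 of the 10 members had a mean change below 0 relative to the CD3 genes, and 6 relative to all 9 markers. Without a reference, 6 of the 10 had a mean change above 0. The share of all features below 0 was not computed, so these counts describe the reference as much as the members. CD3E itself averaged 13.8 to 24.4 CPM in Z13076, Z15339 and Z15228 and 79.1 and 90.6 CPM in Z15408 and Z15303.

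Other factors of T-cell differentiation were taken from a list of 44, of which 42 were in the table and tested. None was called in any comparison by edgeR, DESeq2 or limma-voom, and 2, 3 and 0 had an unadjusted p under 0.05 in edgeR (2, 4 and 2 with the block), against 1.61%, 1.69% and 0.505% of all features (4.69%, 5.85% and 2.17% with the block). At week 12, 19 stood higher and 23 lower, with a median log2 fold change of -0.03 against 0.004 over all features. Of these, KLF7, a Krüppel-like factor of the same family as KLF2, was lower in 5 of 5 animals at week 12, with a mean of 16.3 ± 2.35 CPM before treatment and 11.4 ± 1.61 CPM at week 12 (log2 fold change -0.51, SE 0.15, edgeR unadjusted p = 0.00348, adjusted p = 0.99997). A lower value in 5 of 5 animals at week 12 was seen for 3.45% of all features. MAF, a factor of T helper 2 and follicular helper cells, was higher in 5 of 5 animals at week 12, at 10.38 ± 2.96 CPM against 6.79 ± 2.01 CPM (log2 fold change 0.62, SE 0.29, edgeR unadjusted p = 0.0489).

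At week 18, NR4A3 and NR4A2, nuclear receptors that are induced early after T-cell receptor signalling, had the smallest p-values of the 42. NR4A3 was lower than before treatment in 5 of 5 animals, with 9 to 21 counts per library before treatment and 1 to 5 at week 18 (log2 fold change -1.998, SE 0.69, edgeR unadjusted p = 0.0103, adjusted p = 0.99998). NR4A2 was lower in 4 of 5 (-0.54, SE 0.22), at 22.9 ± 2.73 CPM before treatment and 15.8 ± 4.97 CPM at week 18. NR4A1 of the same family was lower in 3 of 5 (-0.20, SE 0.30). A lower value in 5 of 5 animals at week 18 was seen for 3.49% of all features. PRDM1, which encodes the effector factor BLIMP1, had the smallest p at week 18 vs. week 12 (log2 fold change -0.52, SE 0.25, edgeR unadjusted p = 0.0517), lower in 4 of 5 animals.

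Surface and functional genes of the same T-cell states gave no call either (0 of 10 naive and memory surface genes, 0 of 13 effector genes and 0 of 9 regulatory genes in each comparison by edgeR, with and without the block). At an unadjusted p of 0.05, edgeR passed 1, 1 and 0 of the surface genes and 0 of the others, against 1.61%, 1.69% and 0.505% of all features. With the block, 2, 2 and 0 surface genes, 0, 0 and 1 effector genes and 0, 1 and 0 regulatory genes passed. The shares of all features with the block were 4.69%, 5.85% and 2.17%. CCR7, the lymph node homing receptor of naive and central memory cells, averaged 682 ± 100.5 CPM (SD, n = 5) at pre-treatment, 871 ± 168 CPM at week 12 and 887 ± 71.9 CPM at week 18. It was higher in 4 of 5 animals at week 12 (log2 fold change 0.35, SE 0.14, unadjusted p = 0.0234) and in 5 of 5 at week 18 (0.38, SE 0.14, unadjusted p = 0.016), where 3.04% of all features were higher in 5 of 5. Of the effector genes, 12 of 13 stood lower at week 18 than at week 12, with a median log2 fold change of -0.09 against -0.003 over all features. The sum of the NK-cell markers, given above, was lower on average in the same comparison. Of the 7 markers, 6 stood lower, while NCAM1 was higher in 5 of 5 animals (log2 fold change 0.53, SE 0.68, and 0.47, SE 0.15, with the block). The part of NK cells in the effector genes' values was not tested. GZMA was lower in 5 of 5 animals in that comparison (-0.43, SE 0.38), and GZMB in 4 of 5 (-0.36, SE 0.24). With the block, GZMA differed by -0.40 (SE 0.15) and GZMB by -0.33 (SE 0.18). Of the 9 regulatory genes, 5 stood higher and 4 lower at week 12 (median log2 fold change 0.04), and 6 higher and 3 lower at week 18 vs. pre-treatment (0.08). CTLA4, an inhibitory receptor of regulatory and activated T cells, was lower in 5 of 5 animals at week 12 (-0.49, SE 0.27), and TIGIT, another such receptor, at week 18 (-0.35, SE 0.27 against pre-treatment), against 3.45% and 3.49% of all features lower in 5 of 5. IL2RA, the interleukin-2 receptor chain of regulatory T cells, was higher at week 12 in 4 of 5 (0.12, SE 0.24).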

How the data were processed

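PBMC RNA was converted with SMART-Seq v4, and per the labels and the study's methods the authors aligned paired reads with STAR 2.7.9a to the *M. nemestrina* genome (Ensembl) and deposited raw read counts per gene (GeneCounts mode of STAR; the strand column is not given in the sources used here). No gene lengths or sequences of the members were used. Analysis used R 4.3.3, edgeR 4.0.16, DESeq2 1.42.0 and limma 3.58.1. Counts from the 15 libraries were scaled by TMM and filtered with filterByExpr (minimum count 10), which left 12880 of 28865 features, and tested by edgeR's quasi-likelihood F test with time point as the only term, with Benjamini-Hochberg adjustment over all features and a threshold of 0.05. SE was taken from F, as the size of the log2 fold change over F's square root. Log2 CPM used a prior count of 2. Libraries named for the same animal were paired by the subject label: their deviations from the time point means had a mean correlation of 0.551 (15 pairs), against -0.137 for other pairs (60). The biological coefficient of variation was 29.3% without the block and 16.9% with it. No libraries held identical values. Each library is 1 sample of 1 animal. The members and the gene lists were chosen with earlier results of these data known. Named genes are the 10 members and, from each list, at most 5 genes with the smallest unadjusted p per comparison. Cell-type markers, listed genes that differed between animals and NR4A1, as a relative of NR4A2 and NR4A3, are named besides. The tests were tested on simulated data. Alternatives were the block, DESeq2, limma-voom, other scalings, no filter, a threshold of 0.1, CD3 genes as a covariate and leaving out each animal.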

Additional observations from a re-analysis of the deposited data

Results flagged for a closer look

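In 66 groups of 5 values, 2 held a value far from the other 4, and chance gives such a gap in about 1 group in 20. The change of SATB1 between week 12 and week 18 was -0.20 on the log2 scale in Z13076, and the nearest of the other animals was at 0.05 (gap 0.721 of the range, critical value 0.71). The change of ZEB2 in the same comparison was 0.18 in Z15408, and the nearest was at -0.13 (gap 0.764 of the range).

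In 3 comparisons of a member with pre-treatment, every animal with shared library dates moved one way and both animals with dates of their own moved the other. The mean within-animal changes in the 2 sets were -0.30 and 0.24 for TCF7 at week 12, -0.13 and 0.23 for TCF7 at week 18, and -0.37 and 0.16 for ZEB2 at week 12. Such a split was seen for 2 and 1 of the 10 members at week 12 and week 18 vs. pre-treatment, against 16.5% and 16.3% of all features, so the members were near the background. The difference between the sets was not tested.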

How the results depend on the processing

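No alternative called a member or another T-cell factor between time points (0 in each). With the animal as a replicate block the counts called also stayed at 0, and the block turned the sign of KLF2 at week 18 vs. week 12 (-0.00016) and of TBX21 at week 18 vs. pre-treatment (-0.012). Most turned values were near 0, and the cause was not tested. DESeq2 with the block gave 0.0045 for LEF1 at week 12, 0.0012 for SATB1 at week 18, -0.0016 for KLF2 at week 18 vs. week 12 and -0.0088 for TBX21 at week 18, and limma-voom gave 0.0088, 0.0057, -0.0021 and -0.012 for the same values. Without TMM, TCF7 (-0.026) and TBX21 (-0.0069) turned at week 18, and with CD3 genes as a covariate TCF7 (-0.0031) and EOMES (0.063) did.

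Leaving out each animal in turn, the log2 fold changes that turned ran from -0.105 to 0.089 (LEF1), -0.146 to 0.083 (SATB1) and -0.014 to 0.232 (FOXP3) at week 12. At week 18 vs. pre-treatment they ran from -0.061 to 0.061 (TCF7), -0.039 to 0.191 (LEF1), -0.124 to 0.126 (SATB1), -0.240 to 0.197 (TBX21), -0.147 to 0.0089 (EOMES), -0.028 to 0.139 (GATA3) and -0.158 to 0.030 (IKZF2). At week 18 vs. week 12 they ran from -0.045 to 0.077 (KLF2), -0.343 to 0.0097 (TBX21), -0.120 to 0.072 (GATA3) and -0.109 to 0.241 (IKZF2). Signs also turned, inside these ranges, for TCF7 (-0.024) without Z13076, LEF1 (0.043) without Z15303, SATB1 (0.013) and TBX21 (-0.0023) without Z15339, KLF2 without Z15228 (-0.0093) or Z15303 (-0.036), and GATA3 without Z15228 (0.0092) or Z15408 (0.0021). The members called between animals ranged from 2 (without Z15303) to 5, against 6 with all animals. The index against the 3 effector factors alone differed by 0.218 at week 18 vs. week 12, against 0.11 with all 6. Relative to CD3D and CD3G alone, added after seeing the data, 8 members were lower at week 12, again without a share of all features for comparison. IKZF2, with the fewest counts, had an SE of 0.20 with the block.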
